A study of Xenopus tropicalis with 84 samples.

Results

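The late blastula to early gastrula of uninjected *Xenopus tropicalis* embryos was covered by 6 polyA+ RNA-seq libraries, out of the 84 libraries of the series. They were chosen by time alone: the uninjected control (UIC) libraries of 6.5, 7 and 7.5 hours post fertilization (hpf) were compared with the UIC libraries of 5, 5.5 and 6 hpf, across all genes. UIC embryos came from in vitro fertilization, were given no injection and were raised at 25°C. Each library was made from 10 whole embryos, so no cell type was separated, and ERCC spike-in RNA was added before extraction. In the wider study, embryos injected with 10 ng of a morpholino oligonucleotide (MO) against the start site of *nup107*, which encodes a nuclear pore protein, were collected at the same times, every 30 min. These MO embryos are compared with the UIC embryos at the end of the results, and they enter some of the alternative settings. All embryos were of the Nigerian (N) strain, and the paper describes the controls as siblings of the MO embryos. The parents themselves are not given in the sources used here. The table named for polyA+ libraries and the one named for ribosomal RNA-depleted libraries hold identical values, and the values were taken as polyA+ from the table and column labels alone: that they come from the other kind of library was not tested. Each time point has a single library per condition, and neighbouring time points therefore served as replicates of a window: the p-values measure the spread between time points of one series, not between clutches.

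A frog embryo starts on maternal mRNA laid down in the egg, and transcription of its own genome begins at the mid-blastula transition. In the hours that follow, Nodal ligands made in vegetal cells, Wnt, BMP and FGF signals divide the embryo into endoderm, mesoderm and ectoderm, and the dorsal organizer releases antagonists of BMP, Wnt and Nodal as gastrulation starts. Many maternal mRNAs are deadenylated and destroyed over the same period. Because polyA+ libraries select on the tail, a maternal mRNA that gains or loses its tail also changes in such libraries.

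Values are in TPM, a measure of transcript abundance relative to all transcripts of a library. They correct for transcript length and add up to the same total in every library. In bulk samples of this kind, fewer cells of a type and less RNA per cell cannot be told apart. Of 34192 genes, 13026 had a mean of at least 1 TPM over the 6 libraries and were tested. The 6 libraries fell in time order on the first principal component of log2(TPM + 1), which held 68.0% of the variance. Neighbouring libraries had Spearman correlations across genes of 0.98 to 0.989, and the 5 and 7.5 hpf libraries one of 0.907. The 6.5 hpf library stood somewhat apart: it held the highest of the 6 values for 4008 genes (30.8%). At the other end, the 7.5 hpf library held the lowest value for 5261 genes (40.4%). The ERCC share of the TPM lay between 4.47% and 5.81% in the later window and between 4.74% and 5.23% in the earlier one.

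The difference between the windows, on the log2(TPM + 1) scale, had a median of -0.01 over all tested genes. In the limma test of the windows, 62 genes (0.476%) were higher at 6.5 to 7.5 hpf and 3 genes (0.023%) were lower, at a Benjamini-Hochberg adjusted p under 0.05. At least 2-fold differences among these numbered 56 higher (0.43%) and 3 lower (0.023%). This test takes change within a window as noise, so a gene that moved steadily through both windows has a large error. A slope over the same 6 libraries, in log2(TPM + 1) per hour, was therefore tested as well. It was above 0 in 1180 genes (9.06%) and below 0 in 1352 genes (10.4%). Below, a gene is said to have risen or fallen where this slope passed an adjusted p under 0.05. Slopes above 0 made up 46.6% of these calls, and 60.1% (794 against 528 genes) once libraries were scaled by their ERCC spike-ins. Of the window calls, 61 of the 62 higher genes also rose and 2 of the 3 lower genes also fell. A rise was called in every alternative slope fit on the UIC libraries for 540 genes (4.15%), and a fall for 400 genes (3.07%). These are named as kept in every fit below.

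Single libraries, at either end and inside the windows, decided part of these counts. Without the 7.5 hpf library, 723 genes rose and 519 fell. Without the 5.5 hpf library, 726 rose and 599 fell, and without the 7 hpf library 806 fell. Without the 6.5 hpf library the window test itself called 564 genes higher and 564 lower. In contrast, it called 287 higher and 18 lower without the 6 hpf library, 2 higher and 1 lower without the 5 hpf library, 2 higher and none lower without the 7.5 hpf library, and 0 in either direction without the 5.5 or the 7 hpf library, where limma gave 1752 and 1943 genes at an unadjusted p under 0.05.

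**Figure D1:**
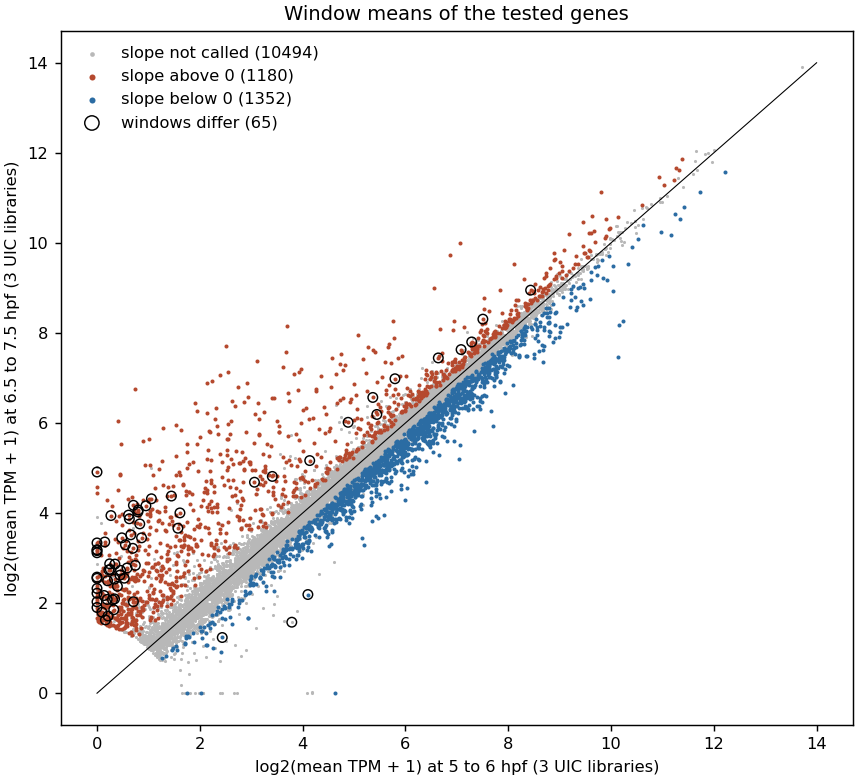
Mean expression of each of the 13026 tested genes, as log2(mean TPM + 1), at 6.5 to 7.5 hpf (vertical axis) against 5 to 6 hpf (horizontal axis), 3 UIC libraries each. Points above the diagonal line are higher in the later window. The 1180 rising genes lie above the line and reach farthest from it at the lower left, whereas the 1352 falling genes lie close under it, and rings mark the 65 genes called by the window test.

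The rising genes split into genes that were absent before zygotic transcription and genes with maternal mRNA. Of the 1180, 578 (49.0%) had a mean under 1 TPM at 2 to 3 hpf, against 8.33% of all tested genes, and 416 (35.3%) had at least 10 TPM there. Their median level was 23.6 TPM at 6.5 to 7.5 hpf and 4.89 TPM at 5 to 6 hpf, and it was 54.5 TPM at 10 to 12 hpf. A window difference of at least 1 was found in 682 of the rising genes (5.24% of all tested), and 533 of these (78.2%) were under 1 TPM at 2 to 3 hpf. In the median of these 682 genes, the largest of the 5 steps of 30 min was the one between 6 and 6.5 hpf, at 0.85 on the log2(TPM + 1) scale. Choosing genes by their window difference favours this step, which lies at the border of the windows. Few of the rising genes had reached their maximum: 143 (12.1%) peaked between 6.5 and 7.5 hpf, 318 (26.9%) between 8 and 9.5 hpf and 687 (58.2%) between 10 and 12 hpf.

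The falling genes had mRNA before zygotic transcription. All but 3 of the 1352 had at least 1 TPM at 2 to 3 hpf, and 1222 (90.4%) had at least 10 TPM, against 64.3% of all tested genes. The 3 exceptions were *fank1*, *gltscr1l* and LOC100489128, named because they are so few, with peaks of 1.75 to 3.03 TPM at 5 or 5.5 hpf. The median level of the falling genes was 43.3 TPM at 6.5 to 7.5 hpf and 62.9 TPM at 5 to 6 hpf, and 9.8 TPM was left at 10 to 12 hpf. Only 111 (0.852% of all tested) had a window difference of -1 or less. In the median over the 1352 genes, the largest of the 5 steps was the last, between 7 and 7.5 hpf, at -0.36.

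**Figure D2:**
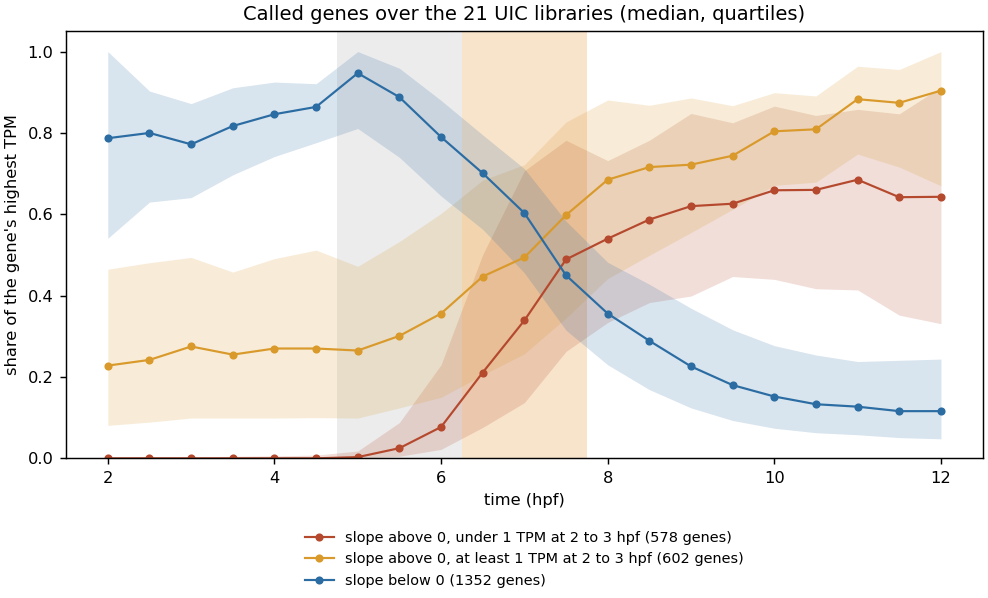
Median share of each gene's highest TPM (line with points) and quartiles (band) over the 21 UIC libraries from 2 to 12 hpf, for rising genes under 1 TPM at 2 to 3 hpf, rising genes at 1 TPM or more there, and falling genes. Orange shading marks 6.5 to 7.5 hpf and grey 5 to 6 hpf. The first class had a median share of 0.077 at 6 hpf, 0.211 at 6.5 hpf and 0.489 at 7.5 hpf, and the falling class 0.79 at 6 hpf, 0.45 at 7.5 hpf and 0.116 at 12 hpf.

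Genes can also be placed by the first library in which they reached 1 TPM and stayed there until 7.5 hpf, having been under 1 TPM in every earlier UIC library. By this description 66 genes started at 5 hpf, 165 at 5.5 hpf, 164 at 6 hpf and 199 at 6.5 hpf. The genes of 5 hpf included *mix1*, *bix1.1*, *sox17a*, *sox17b.1* and *lefty*. Those of 6 hpf included *t*, *apela*, *frzb*, *krt*, *efnb2* and *prdm1*. Among those of 6.5 hpf were *otx2*, *nodal1*, *pcdh8.2*, *upk3b*, *hk2* and *hist2h2ab*. The later genes were still low: the median level at 6.5 to 7.5 hpf was 2.63 TPM for the genes that started at 6.5 hpf, 6.21 TPM for those of 6 hpf, 15.2 TPM for those of 5.5 hpf and 45.4 TPM for those of 5 hpf. Of the 199 genes of 6.5 hpf, 158 passed the filter and 142 rose. The choice of these genes favours both counts, because it rests in part on their levels in the same libraries.

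Most tested members of the organizer list rose. Of 22 organizer genes tested, 15 rose (68.2%, against 9.06% of all tested genes) and 1 fell (4.55%, against 10.4%), 9 of the rises were kept in every fit, and the median window difference was 2.01. The list had 24 rows, and rows below the filter were not tested. In this list and those below, a gene near 0 at 5 to 6 hpf passed the filter only if it was higher later. The filter therefore favours the share that rose. *foxa4*, a forkhead gene of the organizer and dorsal midline, had 102, 248 and 499 TPM at 6.5, 7 and 7.5 hpf, against 0.59, 6.26 and 28.9 TPM at 5, 5.5 and 6 hpf. Each library was higher than the one before it, and the slope was 3.35 ± 0.19 per hour, adjusted p = 0.000193 (SE, limma). *gsc*, a homeobox repressor that marks the organizer, had 27.6, 69.9 and 124 TPM in the later window, against 0.06, 3.00 and 7.15 TPM in the earlier one. It was near 0 at 5 hpf and had a slope of 2.78 ± 0.13 per hour, adjusted p = 9.78e-05. *chrd*, which encodes the secreted BMP antagonist Chordin, had 35.1, 57.5 and 87.5 TPM in the later window, against 0.03, 1.66 and 10.4 TPM in the earlier one. The windows did not overlap in *chrd* and the slope was 2.7 ± 0.22 per hour, adjusted p = 0.000588. The second BMP antagonist gene, *nog*, had 46.9, 64.8 and 83 TPM in the later window, against 1.06, 7.95 and 22 TPM in the earlier one, with a slope of 2.08 ± 0.25 per hour, adjusted p = 0.00226. *frzb*, which encodes a secreted Wnt antagonist, came up later than *nog* and had 7.62, 32.3 and 95.1 TPM in the later window, against 0, 0.11 and 1.04 TPM in the earlier one. Its slope was 2.84 ± 0.27 per hour, adjusted p = 0.000916. The LIM homeobox gene *lhx5* had 40.6, 73 and 133 TPM in the later window, against 0.07, 2.08 and 14.1 TPM in the earlier one, with a slope of 2.86 ± 0.21 per hour, adjusted p = 0.000393.

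Some organizer genes came late in the window. *cer1*, which encodes a secreted inhibitor of Nodal, BMP and Wnt ligands, was listed at 0 TPM in all libraries of the earlier window and had 0.58, 11 and 50.5 TPM in the later one. *otx2*, a homeobox gene of the future head, had 2.12, 10.7 and 42.7 TPM in the later window, against 0.09, 0.17 and 0.16 TPM in the earlier one. Both rose (*cer1* 2.28 ± 0.47 per hour, adjusted p = 0.0168, and *otx2* 2.17 ± 0.35 per hour, adjusted p = 0.00656), but neither call was kept without the 7.5 hpf library. The member that fell was *cyp26a1*, which encodes an enzyme that degrades retinoic acid and is maternal, at 121, 85.2 and 63.7 TPM in the later window, against 119, 127 and 121 TPM in the earlier one. This fall (-0.35 ± 0.09 per hour, adjusted p = 0.0418) was lost with ERCC scaling and without several of the time points. The 6 members with no call included *sia2*, with 29.7, 24.1 and 10.6 TPM in the later window, against 10.4, 26.2 and 35.3 TPM in the earlier one. The others were *shisa2* (-0.33), *tcf7* (-0.32), *bmp2* (-0.15), *sia1* (1.21) and *frzb2* (1.13), given as window differences. *not* rose over the 6 libraries but declined inside the later window, at 109, 95.1 and 69.7 TPM.

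**Figure D3:**
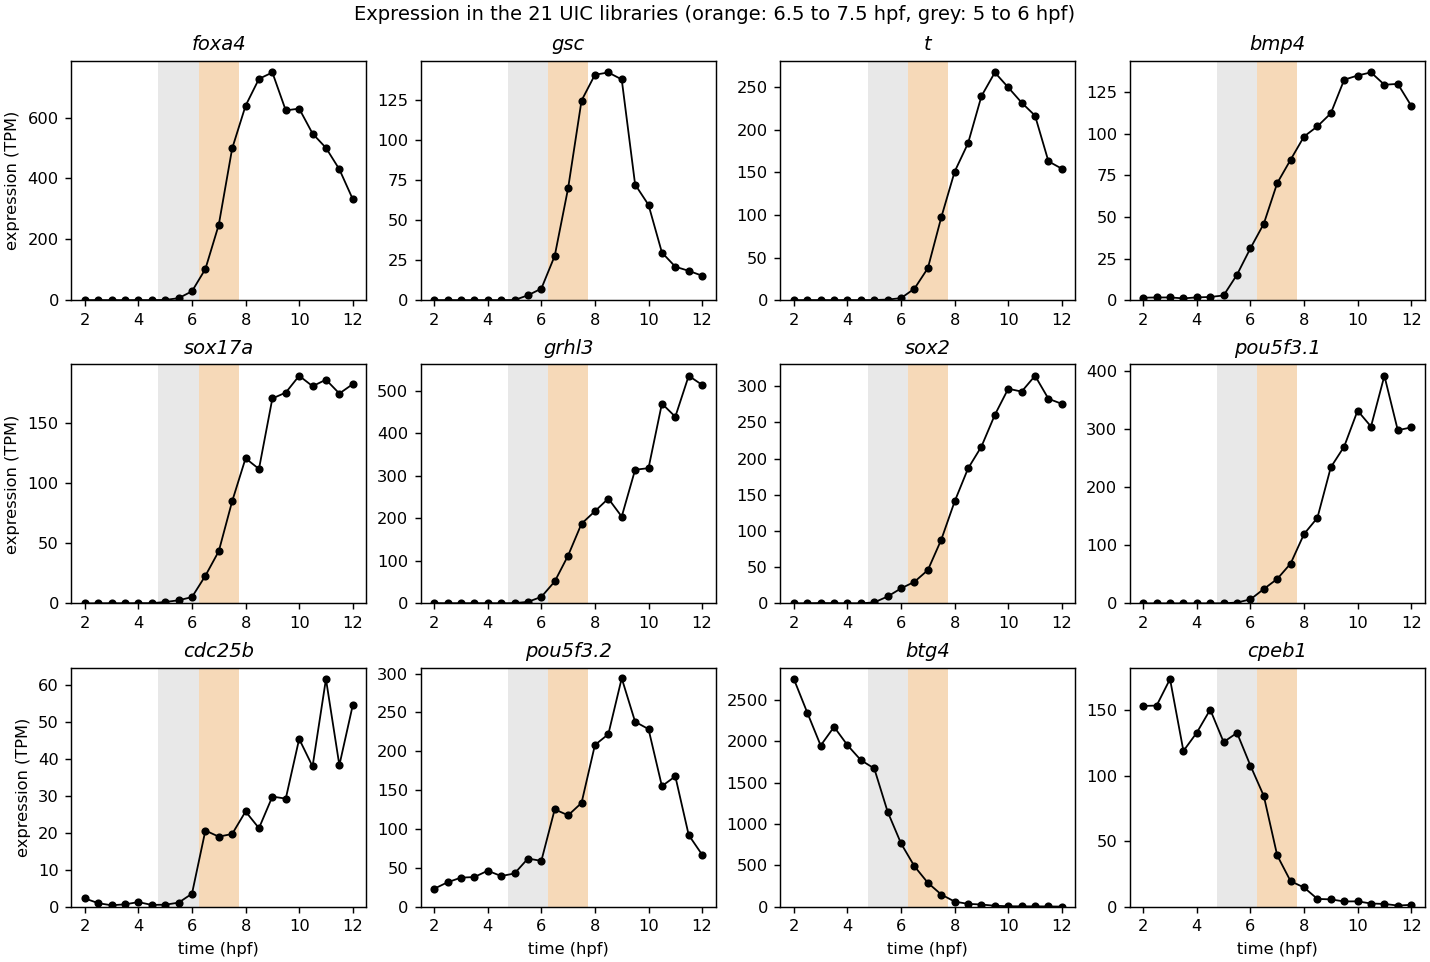
Expression in TPM (vertical axes, each from 0) of 12 named genes in the 21 UIC libraries from 2 to 12 hpf, one point per library. Orange shading marks 6.5 to 7.5 hpf and grey 5 to 6 hpf. *foxa4*, *gsc*, *t*, *sox2*, *sox17a*, *grhl3*, *bmp4* and *pou5f3.1* climb through both windows, *cdc25b* and *pou5f3.2* step up between 6 and 6.5 hpf, and *btg4* and *cpeb1* decline.

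The ventral side of the same system rose at the same time. Of 19 genes of the BMP and ventral list, 11 rose (57.9%, against 9.06% of all tested genes) and none fell (against 10.4%). The 19 were those of 28 rows that passed the filter. Of the rises, 10 were kept in every fit, and the median difference was 2.39. The ligand gene *bmp4* had 46, 70.4 and 84.5 TPM in the later window, against 2.8, 15.3 and 31.2 TPM in the earlier one. It had been at 1.54 TPM at 2 to 3 hpf, and its slope was 1.68 ± 0.23 per hour, adjusted p = 0.00369. *id3*, a BMP target that encodes an inhibitor of basic helix-loop-helix factors, was the most abundant of the named members, at 476, 889.5 and 1187 TPM in the later window, against 30.4, 86 and 229 TPM in the earlier one. Its slope was 2.13 ± 0.15 per hour, adjusted p = 0.000335. The homeobox repressor genes *ventx1.1* (2.39 per hour), *ventx1.2* (2.11 per hour) and *ventx2.1* (2.12 per hour), which act downstream of BMP, also rose. *szl*, whose secreted product protects Chordin from cleavage, had 8.25, 12 and 16.6 TPM in the later window, against 0.12, 0.68 and 4.56 TPM in the earlier one, with a slope of 1.68 ± 0.17 per hour, adjusted p = 0.0011. *wnt8a*, the Wnt ligand of the ventral and lateral margin, had 36.7, 58.4 and 86.6 TPM in the later window, against 0.66, 7.96 and 23.4 TPM in the earlier one, with a slope of 2.14 ± 0.27 per hour, adjusted p = 0.00259. Members of this list with no call included the receptor gene and inhibitory Smad genes *bmpr1a* (-0.31), *smad6* (-0.37) and *smad7* (0.15), given as window differences.

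In the Nodal list, the ligand genes rose except the maternal *gdf1* (-0.07), which had no call, and the *lefty* antagonist gene rose too. Of 22 rows, 10 rose (45.5%, against 9.06% of all tested genes) and 1 fell (4.55%, against 10.4%). In every fit 7 rises and the fall were kept, and the median difference was 0.09. *nodal2* had 14.1, 38.4 and 59.2 TPM in the later window, against 0.09, 1.27 and 4.31 TPM in the earlier one. The windows were far apart, with a slope of 2.45 ± 0.11 per hour, adjusted p = 9.78e-05. *nodal1* had 4.28, 9.03 and 23.6 TPM in the later window, against 0.18, 0.19 and 0.82 TPM in the earlier one, and its slope was 1.87 ± 0.19 per hour, adjusted p = 0.00126. *lefty*, a Nodal target that encodes an inhibitor of Nodal signalling, had 39.6, 60.1 and 64.6 TPM in the later window, against 1.03, 5.69 and 12.7 TPM in the earlier one. Its slope was 2.07 ± 0.22 per hour, adjusted p = 0.0013. The ligand gene *gdf3*, known in frogs as derriere, differed by 2.55 and rose. The receptor genes *acvr1b* (-0.08), *acvr2a* (-0.01) and *acvr2b* (-0.16), the signal transducers *smad2* (-0.13) and *smad3* (-0.26) and their nuclear partner *foxh1* (-0.11) had window differences near 0 and no call. The member that fell, *tdgf1.1*, encodes a co-receptor of the Cripto family and was maternal, with 189, 158 and 120.3 TPM in the later window, against 282, 245 and 229 TPM in the earlier one. Its slope was -0.47 ± 0.04 per hour, adjusted p = 0.000885.

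The mesoderm list had 15 rising members of 17 tested (88.2%, against 9.06% of all tested genes) and none that fell (against 10.4%). Of its 30 rows, 17 passed the filter, and the rest reached at most 3.69 TPM in the later window. Some members, such as *sebox* (mean of 0.36 TPM at 5 to 6 hpf), passed through the later window alone, which favours this share. Of the rises, 12 were kept in every fit, and the median difference of the list was 1.81. The T-box gene *t* (Brachyury), which marks early mesoderm and later the notochord, had 13.5, 37.5 and 97.2 TPM in the later window, against 0.11, 0.61 and 2.31 TPM in the earlier one. Its slope was 2.75 ± 0.18 per hour, adjusted p = 0.000278, and it went on to peak at 9.5 hpf. *eomes*, a T-box gene induced by Nodal, had 43.5, 61.6 and 89.4 TPM in the later window, against 0.09, 3.54 and 11.6 TPM in the earlier one. It was above *t* from 5.5 to 7 hpf, and its slope was 2.57 ± 0.25 per hour, adjusted p = 0.000932. The ligand gene *fgf8* had 35, 48.5 and 54.4 TPM in the later window, against 0.18, 5.38 and 16.2 TPM in the earlier one, with a slope of 2.15 ± 0.31 per hour, adjusted p = 0.00434. Of the 2 gene rows with the symbol *wnt11*, one rose (1.41 per hour) and the other differed by -0.01. The forkhead repressor *foxd4l1.1* (2.7 per hour), also a member of the neural list, and the paired-like homeobox gene *sebox* (2.53 per hour) rose as well. The defining member *myod1* was below the filter and not tested. It had 0.36, 0 and 0.18 TPM in the later window, against 0.28, 0.3 and 0.42 TPM in the earlier one.

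Most tested endodermal genes rose: 13 of 15 did (86.7%, against 9.06% of all tested genes) and 1 fell (6.67%, against 10.4%). The 15 were those of 22 rows that passed the filter, and the rest reached at most 1.84 TPM in the later window. Some members, such as *gata4* (mean of 0.12 TPM at 5 to 6 hpf), passed through the later window alone, which favours this share. In every fit 9 rises were kept, and the median difference, 2.53, was the highest of the lists. *mixer*, a homeobox activator of endodermal genes downstream of Nodal, had 52.8, 66.6 and 119.6 TPM in the later window, against 0.09, 2.73 and 9.1 TPM in the earlier one. It climbed steeply between 6 and 6.5 hpf and had a slope of 2.79 ± 0.24 per hour, adjusted p = 0.000627. *sox17a*, an HMG-box regulator of endoderm, had 22.9, 43.4 and 84.8 TPM in the later window, against 1.17, 2.58 and 5.26 TPM in the earlier one, with a slope of 2.25 ± 0.13 per hour, adjusted p = 0.000231. *sox17b.1* had 21, 29.3 and 52.9 TPM in the later window, against 2.18, 6.45 and 11.6 TPM in the earlier one, with a slope of 1.56 ± 0.1 per hour, adjusted p = 0.000241. The Mix-family genes *mix1* (2.41 per hour) and *bix1.1* (2.52 per hour) rose too, and *bix1.1* had already reached its highest value of the whole course at 7.5 hpf. *gata4*, a zinc-finger factor of endoderm and heart, was the latest of the named genes, with 0.89, 5.95 and 19.4 TPM in the later window, against 0.08, 0.08 and 0.19 TPM in the earlier one. Its rise (1.71 ± 0.31 per hour, adjusted p = 0.0103) was not called without the 7.5 hpf library. The maternal HMG-box gene *sox7* fell, with 123, 104 and 68.8 TPM in the later window, against 130.2, 135 and 111 TPM in the earlier one. That call (-0.31 ± 0.09 per hour, adjusted p = 0.0442) was lost with ERCC scaling and when any of 5 time points was left out.

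**Figure D4:**
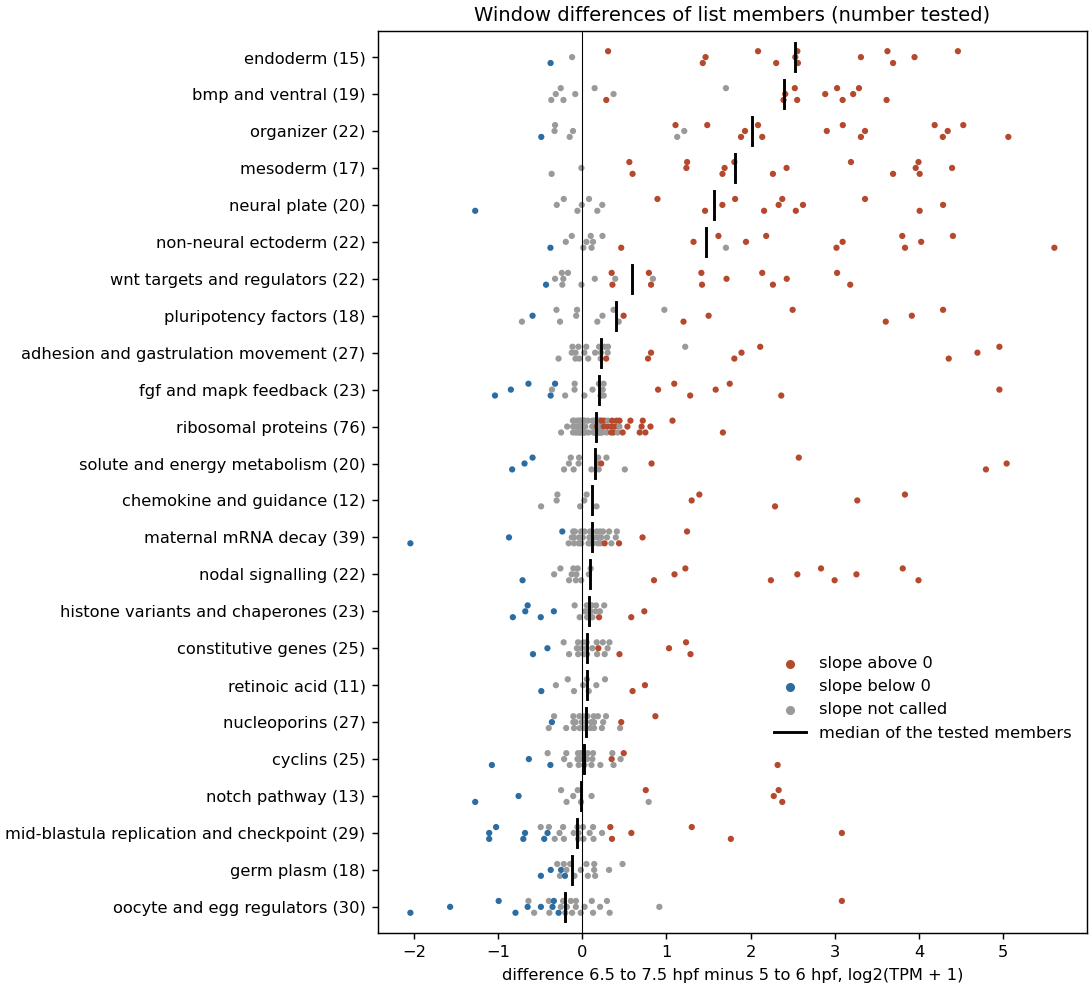
Difference between the windows (6.5 to 7.5 hpf minus 5 to 6 hpf, log2(TPM + 1), horizontal axis) for every tested member of each list with at least 10 tested members, with the number tested in brackets. Red points are members that rose, blue ones fell and grey ones had no call, and the black bar is the median. Endoderm, BMP and ventral, organizer and mesoderm lists have the highest medians (1.81 to 2.53), and oocyte and egg regulators the lowest (-0.21).

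In the ectoderm, 12 of 22 non-neural (54.5%) and 12 of 20 neural plate genes (60.0%) rose, against 9.06% of all tested genes. These were the members that passed the filter, out of 28 non-neural and 29 neural plate rows. In each list 1 member fell (4.55% and 5.0%, against 10.4%). The rises kept in every fit numbered 9 and 8, and the median differences were 1.47 and 1.56. *krt*, a keratin gene, had the largest window difference (5.61) of the named genes, with 19.9, 75.1 and 226 TPM in the later window, against 0, 0.06 and 1.94 TPM in the earlier one. It was at or close to 0 until 5.5 hpf, and its slope was 3.45 ± 0.29 per hour, adjusted p = 0.000605. *grhl3*, a Grainyhead-like factor of the epidermis, had 51.7, 113 and 188 TPM in the later window, against 0.55, 3.73 and 15.3 TPM in the earlier one, with a slope of 2.86 ± 0.16 per hour, adjusted p = 0.000198. *tfap2a*, a factor of epidermis and neural crest, had 36, 48.1 and 63.1 TPM in the later window, against 0.07, 2.07 and 12.1 TPM in the earlier one, with a slope of 2.46 ± 0.27 per hour, adjusted p = 0.00156. The uroplakin gene *upk3b* (2.49 per hour) and the keratin gene *krt5.7* (2.46 per hour) followed the same course. *foxi1*, a forkhead gene of the ectoderm, was irregular, at 10.2, 7.28 and 22.6 TPM in the later window, against 0.89, 5.04 and 11.3 TPM in the earlier one. The windows overlapped, and its rise (1.11 ± 0.28 per hour, adjusted p = 0.0321) was lost without the 5, the 5.5 or the 7.5 hpf library. The defining non-neural member *dlx3* was below the filter and not tested. It had 0, 0.62 and 1.36 TPM in the later window and was listed at 0 TPM throughout the earlier one.

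Of the neural genes, *sox2*, an HMG-box gene of neural progenitors, had 29.8, 46 and 88 TPM in the later window, against 1.41, 9.57 and 20.8 TPM in the earlier one. It was already above 20 TPM at 6 hpf, and its slope was 1.88 ± 0.2 per hour, adjusted p = 0.00143. The related maternal gene *sox3* had 557, 528 and 466 TPM in the later window, against 435, 450.4 and 482 TPM in the earlier one. That slope of 0.08 ± 0.05 per hour, adjusted p = 0.371 was not called. *hes7.1*, a Hairy-related repressor gene, was the neural member that fell, with 361, 219 and 89.7 TPM in the later window, against 429.6, 459.9 and 511 TPM in the earlier one, and its fall (-0.85 ± 0.21 per hour, adjusted p = 0.0317) was lost without the 5.5, the 7 or the 7.5 hpf library. Its relative *hes7.2* was low until 6.5 hpf, with 2.84, 10.7 and 69.8 TPM in the later window, against 1.03, 2.3 and 2.41 TPM in the earlier one. That rise (1.79 ± 0.36 per hour, adjusted p = 0.0158) rested on the 7.5 hpf library.

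The 3 Oct4-related *pou5f3* genes of the frog behaved differently from each other. *pou5f3.1*, listed at 0 TPM at 2 to 3 hpf, had 24.8, 42.2 and 68.6 TPM in the later window, against 0.13, 1.53 and 6.94 TPM in the earlier one. Its slope was 2.5 ± 0.16 per hour, adjusted p = 0.00028. *pou5f3.2* had 125, 118 and 134 TPM in the later window, against 42.8, 62 and 59 TPM in the earlier one, a step between the windows with little change inside the later one. It passed the window test, with a difference of 1.2 ± 0.15, adjusted p = 0.0431, and the slope was kept in every fit. The maternal *pou5f3.3* had 233, 171 and 152 TPM in the later window, against 139, 152 and 116 TPM in the earlier one. Its later values did not fall below the earlier ones, but the 7.5 and the 5.5 hpf libraries were almost equal, and its slope (0.12 ± 0.13 per hour, adjusted p = 0.588) was not called. Of the whole pluripotency list of 18, 7 rose (38.9%, against 9.06% of all tested genes) and 1 fell (5.56%, against 10.4%). *prdm1*, which encodes the repressor Blimp1, differed by 3.6 and the zinc-finger gene *klf5* by 2.5, both rising in every fit, and *klf6* (-0.59) fell in every fit.

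Receptors, ligands and feedback genes of other pathways rose in part. In the Wnt list 12 of 22 rose (54.5%, against 9.06% of all tested genes) and 1 fell (4.55%, against 10.4%), with 7 rises kept. *fzd8*, a Frizzled receptor gene, had 10.7, 15.8 and 18.6 TPM in the later window, against 1.14, 1.61 and 3.43 TPM in the earlier one, and passed the window test with a difference of 2.43 ± 0.32, adjusted p = 0.0481. *sfrp2*, which encodes a secreted Wnt antagonist, had 32.2, 39.4 and 50.4 TPM in the later window, against 0.31, 4.53 and 11.8 TPM in the earlier one, with a slope of 2.08 ± 0.26 per hour, adjusted p = 0.00237. The target gene *sp5* differed by 0.84 and had no call. In the FGF and MAPK list 8 of 23 rose (34.8%, against 9.06% of all tested genes) and 5 fell (21.7%, against 10.4%), with 5 rises and 1 fall kept. *spry1*, a feedback inhibitor, had 18.5, 24.4 and 38.6 TPM in the later window, against 7.17, 11.2 and 12.7 TPM in the earlier one, with a slope of 0.86 ± 0.07 per hour, adjusted p = 0.000547. *dusp6*, the ERK phosphatase gene, had 36.1, 37.6 and 34.1 TPM in the later window, against 3.9, 13 and 26.1 TPM in the earlier one. It was flat inside the later window, and its rise (1.09 ± 0.24 per hour, adjusted p = 0.0221) was lost without the 5, the 5.5 or the 7 hpf library. The ligand genes *fgf9* (-0.85) and *fgf2* (-0.38) fell, the second not with ERCC scaling, and none of *fgfr1* (0.24), *fgfr2* (-0.09), *fgfr3* (-0.2) and *fgfr4* (0.25) was called.

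In the Notch list 4 of 13 rose (30.8%, against 9.06% of all tested genes) and 2 fell (15.4%, against 10.4%), and the kept calls were *dll1* and *hes4*. The ligand gene *dll1* had 3.52, 8.44 and 37.9 TPM in the later window, against 0.82, 1.82 and 1.86 TPM in the earlier one, most of it at 7.5 hpf, with a slope of 1.6 ± 0.26 per hour, adjusted p = 0.00644. The receptors *notch1* (-0.25) and *notch2* (-0.11) had no call. In the retinoic acid list 2 of 11 rose (18.2%, against 9.06% of all tested genes) and 1 fell (9.09%, against 10.4%), and none was kept in every fit. *aldh1a2*, which encodes the enzyme that makes retinoic acid, had 136, 123 and 158 TPM in the later window, against 104, 106 and 137 TPM in the earlier one, and its slope of 0.21 ± 0.06 per hour, adjusted p = 0.0558 was not called. Only 2 of 17 *hox* genes in the table passed the filter, and *hoxd1* (0.6) rose, but not with ERCC scaling.

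The cell adhesion and gastrulation movement list had 9 rising members of 27 (33.3%, against 9.06% of all tested genes) and none falling (against 10.4%). Of the rises, 6 were kept, and the median difference was 0.22. *flrt3*, a transmembrane protein gene tied to FGF signalling and cadherin adhesion in frogs, had 38, 102 and 215 TPM in the later window, against 0.13, 1.73 and 8.39 TPM in the earlier one. Each library was higher than the one before, with a slope of 3.18 ± 0.12 per hour, adjusted p = 8.37e-05. *pcdh8.2*, a protocadherin gene, had 5.44, 36.7 and 152 TPM in the later window, against 0, 0.2 and 0.79 TPM in the earlier one. Most of its gain lay between 7 and 7.5 hpf, and it had a slope of 3.03 ± 0.36 per hour, adjusted p = 0.00193. *efnb2*, which encodes an ephrin ligand, had 10.3, 37 and 95.7 TPM in the later window, against 0.09, 0.47 and 2.03 TPM in the earlier one, with a slope of 2.76 ± 0.2 per hour, adjusted p = 0.000353. The extracellular matrix gene *fn1* was not called, and its values of 49, 21.7 and 18.6 TPM in the later window, against 21.4, 33.6 and 17.2 TPM in the earlier one overlapped between windows, with the highest in the 5.5 and 6.5 hpf libraries.

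A ligand gene and its receptor gene both rose. *apela*, which encodes the secreted peptide Elabela (Toddler), had 46.9, 116 and 200.2 TPM in the later window, against 0, 0.59 and 10.5 TPM in the earlier one. The slope of 3.37 ± 0.25 per hour, adjusted p = 0.000415 was the second largest of the named genes. *aplnr*, which encodes the apelin receptor to which that peptide binds, had 26, 44.4 and 115 TPM in the later window, against 0.25, 1.95 and 12.38 TPM in the earlier one. Its slope was 2.6 ± 0.16 per hour, adjusted p = 0.000241. In the chemokine and guidance list 5 of 12 rose (41.7%, against 9.06% of all tested genes) and none fell (against 10.4%), with 4 rises kept. *cxcr4*, a chemokine receptor gene, had 60, 64.5 and 80.3 TPM in the later window, against 3.7, 17.2 and 31.5 TPM in the earlier one, with a slope of 1.54 ± 0.24 per hour, adjusted p = 0.00543. *ackr3*, a scavenging chemokine receptor gene, differed by 3.27 and rose in every fit.

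Some of the steepest genes encode enzymes and pumps. *gatm*, the first enzyme of creatine synthesis, had 45.7, 151 and 427 TPM in the later window, against 1.53, 1.87 and 10.7 TPM in the earlier one. It was flat until 5.5 hpf and its slope was 3.21 ± 0.2 per hour, adjusted p = 0.00025. *atp12a*, which encodes the alpha subunit of a proton and potassium pump, had 47.4, 113 and 242 TPM in the later window, against 0.09, 1.1 and 11.5 TPM in the earlier one, with a slope of 3.33 ± 0.19 per hour, adjusted p = 0.000198. *atp1b2*, the gene of a Na,K-ATPase beta subunit, had 61.8, 133 and 301 TPM in the later window, against 0.29, 3.66 and 18.8 TPM in the earlier one. That slope was 3.18 ± 0.16 per hour, adjusted p = 0.000133. The lysophosphatidic acid receptor gene *lpar6* had 91.9, 196 and 286 TPM in the later window, against 0.3, 6.52 and 28.6 TPM in the earlier one, with a slope of 3.13 ± 0.27 per hour, adjusted p = 0.000663. In the solute and energy list as a whole 5 of 20 rose (25.0%, against 9.06% of all tested genes). A further 3 fell, a share above the 10.4% of all tested genes, and 12 had no call. The rises of *hk2* (2.57), *gatm* (5.04), *atp1b2* (4.79) and *atp1b1* (0.82) were kept in every fit. So were the falls of the amino acid enzyme genes *gls* (-0.59) and *psat1* (-0.83).

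The 62 genes that passed the window test had a step at the border in common, which this test favours: in the median they gained 1.67 on the log2(TPM + 1) scale between 6 and 6.5 hpf, and no more than 0.24 in any other step. Of these genes 17 had a gene symbol, 25 only a LOC number and 20 no symbol. *cdc25b*, which encodes a phosphatase that activates cyclin-dependent kinases, had 20.7, 19 and 19.7 TPM at 6.5, 7 and 7.5 hpf, against 0.55, 1.1 and 3.53 TPM at 5, 5.5 and 6 hpf. The later window was level, and the difference was 3.08 ± 0.38, adjusted p = 0.0431 (SE, limma). *hk2*, the gene of a hexokinase, had 3.73, 5.81 and 9.44 TPM in the later window, against 0.02, 0.07 and 0.47 TPM in the earlier one, with a difference of 2.57 ± 0.32, adjusted p = 0.0436. *hunk*, a protein kinase gene, had 8.09, 11.3 and 15.6 TPM in the later window, against 1.3, 1.89 and 2.74 TPM in the earlier one, with a difference of 2.08 ± 0.28, adjusted p = 0.0481. *pygm*, the gene of glycogen phosphorylase, had 21.3, 25.6 and 34.5 TPM in the later window, against 9.77, 8.57 and 10.6 TPM in the earlier one, with a difference of 1.38 ± 0.19, adjusted p = 0.0494. The RNA-binding protein genes *mex3b* (1.2) and *mex3c* (1.02) also passed.

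Of these 17 genes, 13 had at least 1 TPM at 2 to 3 hpf, and some returned to the level of the cleavage stages. *srsf2*, which encodes a splicing factor, had 502, 481 and 498 TPM in the later window, against 326, 365 and 345 TPM in the earlier one, and 524 TPM at 2 to 3 hpf. Its window difference was 0.52 ± 0.07, adjusted p = 0.0467. *hnrnpu*, which encodes a nuclear RNA-binding protein, had 300.3, 293 and 354 TPM in the later window, against 170.3, 195 and 177 TPM in the earlier one, and 294 TPM at 2 to 3 hpf. *pnn* (pinin) had 214, 217 and 235 TPM in the later window, against 153, 161 and 152 TPM in the earlier one, and 244 TPM at 2 to 3 hpf. The same course was seen in *esco1* (0.55), a cohesin acetyltransferase gene, whereas *ets2* (0.75), an ETS factor gene, rose above its early level. Together with *sfpq* (0.81) and the histone H2A gene *hist2h2ab* (1.49), these 7 were named after their values had been seen. The slopes of 8 of the 17 genes were kept in every fit: *cdc25b*, *fzd8*, *hk2*, *hunk*, *mex3b*, *mex3c*, *pou5f3.2* and *pygm*. In the other 9, which include *sf1* (1.14) and *ccdc181* (1.59), the slope was lost with ERCC scaling or without 1 or more of the time points.

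The 3 genes that were lower by the window test carry only LOC numbers in the deposited data. LOC101731014 had 1.3, 2.13 and 2.52 TPM in the later window, against 11.2, 15.3 and 12 TPM in the earlier one, with a difference of -2.22 ± 0.21, adjusted p = 0.0333. It did not stay low: its highest UIC value of the whole course was 32.6 TPM, at 8 hpf, and its mean at 10 to 12 hpf was 11.35 TPM. LOC101731914 had 3.48, 3.67 and 3.55 TPM in the later window, against 14.5, 21.9 and 12.1 TPM in the earlier one, with a difference of -1.87 ± 0.22, adjusted p = 0.0411. LOC100145817 had 1.43, 1.36 and 1.28 TPM in the later window, against 3.88, 5.18 and 4.18 TPM in the earlier one, with a difference of -1.19 ± 0.16, adjusted p = 0.0481. In all 3 the largest step was the fall between 6 and 6.5 hpf, and each had the highest of its 6 values at 5.5 hpf.

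Among the falling genes with a symbol and at least 5 TPM in the higher window, 10 were named for the largest window differences. In that order these were *fbxl8*, *btg4*, *rnaseh1*, *fbxo43*, *heca*, *ap4s1*, *tmprss11f*, *tfrc*, *socs1* and *pdp1*, and all 10 were kept in every fit. *btg4*, which in the mouse oocyte links the CCR4-NOT deadenylase to maternal mRNAs, had 489, 289 and 147 TPM at 6.5, 7 and 7.5 hpf, against 1671, 1148 and 765 TPM at 5, 5.5 and 6 hpf. It averaged 2349 TPM at 2 to 3 hpf and its slope was -1.38 ± 0.06 per hour, adjusted p = 9.78e-05. *fbxo43*, which encodes Emi2, the inhibitor of the anaphase-promoting complex that holds eggs in meiosis, had 96, 56.6 and 27.7 TPM in the later window, against 269, 204 and 148 TPM in the earlier one. The slope was -1.27 ± 0.09 per hour, adjusted p = 0.000345. *fbxl8*, an F-box gene, had 15.2, 7.98 and 3.25 TPM in the later window, against 46.2, 36.3 and 24.6 TPM in the earlier one, with a slope of -1.38 ± 0.11 per hour, adjusted p = 0.000547. *rnaseh1*, which encodes an RNase H, had 61.1, 33 and 13.6 TPM in the later window, against 169, 134 and 86.2 TPM in the earlier one, with a slope of -1.38 ± 0.12 per hour, adjusted p = 0.000636. *socs1*, a suppressor of cytokine signalling, had 70.3, 44.1 and 18.9 TPM in the later window, against 157, 133 and 108 TPM in the earlier one, with a slope of -1.16 ± 0.13 per hour, adjusted p = 0.00165. None of these had overlapping windows, which the choice by window difference favours. Over all tested genes, 15.5% were lower with no overlap of the windows.

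Oocyte and egg genes fell more often than they rose. Of 30 tested, 9 fell (30.0%, against 10.4% of all tested genes), 7 of them in every fit. Only 1 rose (3.33%, against 9.06%), and the median difference was -0.21. The member that rose was *cdc25b*, described above. *cpeb1*, whose product controls cytoplasmic polyadenylation in the oocyte, had 84.5, 39.1 and 19.5 TPM in the later window, against 126, 133 and 108 TPM in the earlier one. Its slope was -1.07 ± 0.17 per hour, adjusted p = 0.00687. *h1foo*, the gene of an oocyte linker histone, had 2049, 1906 and 1340 TPM in the later window, against 2992, 2832 and 2383 TPM in the earlier one, and a slope of -0.44 ± 0.05 per hour, adjusted p = 0.00161. The oocyte transcription factor gene *figla* (-0.79) and the RNP granule gene *lsm14b* (-0.99) fell as well. Several defining members had no call: *mos*, the kinase gene of meiotic arrest, had 99.9, 75.1 and 47.2 TPM in the later window, against 94.9, 102 and 83.8 TPM in the earlier one. The lowest values were those of 7 and 7.5 hpf, and its slope of -0.34 ± 0.11 per hour, adjusted p = 0.0742 missed the threshold. *wee2*, a Cdk-inhibiting kinase gene, had 513, 366 and 222 TPM in the later window, against 455, 489.9 and 428 TPM in the earlier one, with a slope of -0.35 ± 0.12 per hour, adjusted p = 0.0998. *zar1* (-0.23) and *zar1l* (-0.25) were not called either.

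Of 18 germ plasm genes, 4 fell (22.2%, against 10.4% of all tested genes) and none rose (against 9.06%), and the fall of *velo1*, a germ plasm organizer gene, was the one kept in every fit. *velo1* had 619, 554 and 369 TPM in the later window, against 768, 718 and 638 TPM in the earlier one, with a slope of -0.37 ± 0.07 per hour, adjusted p = 0.00991. *dnd1*, an RNA-binding protein gene of germ cells, had 246, 245 and 188 TPM in the later window, against 284, 261 and 259 TPM in the earlier one. Its fall (-0.19 ± 0.05 per hour, adjusted p = 0.0369) was lost with either other scaling. *dazl* (-0.19), *ddx4* (0.14) and *nanos1* (-0.3), which are germline genes too, had no call.

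Genes of the cell cycle went both ways. In the replication and checkpoint list of 29, 6 rose (20.7%, against 9.06% of all tested genes) and 7 fell (24.1%, against 10.4%), with 4 rises and 3 falls kept. *cdc7*, the kinase gene of origin firing, had 267, 199 and 122 TPM in the later window, against 473, 409 and 338 TPM in the earlier one. Its slope was -0.75 ± 0.07 per hour, adjusted p = 0.0008. *mcm10* (-1.02) and *gins1* (-1.11), which encode replication fork factors, fell as well. *pcna*, the sliding clamp gene, had 347, 418 and 512 TPM in the later window, against 233, 276 and 343 TPM in the earlier one, with a slope of 0.43 ± 0.04 per hour, adjusted p = 0.000758. The helicase subunit gene *mcm6.2*, known in frogs as the zygotic form, had 4.13, 6.73 and 8.1 TPM in the later window, against 0.49, 0.98 and 2.12 TPM in the earlier one. The maternal relative *mcm6* fell (-0.45). Of the 2 rows with the symbol *mcm3*, the low one rose (1.3) and the other differed by -0.27 with no call.

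Of 25 cyclin and cyclin inhibitor genes, 3 rose and 3 fell (12.0% each), close to the 9.06% and 10.4% of all tested genes. *ccne2* (cyclin E2) had 248, 466 and 824 TPM in the later window, against 72.6, 82.6 and 124 TPM in the earlier one, with a slope of 1.48 ± 0.11 per hour, adjusted p = 0.000389. *ccna1*, the embryonic cyclin A, had 1609, 1125 and 726 TPM in the later window, against 2288, 2246 and 2388 TPM in the earlier one. It was level until 6 hpf, and its fall (-0.68 ± 0.12 per hour, adjusted p = 0.00867) was not called without the 7.5 hpf library. *ccnb1* had 2814, 2429 and 1517 TPM in the later window, against 3481, 3311 and 3370 TPM in the earlier one, with a slope of -0.43 ± 0.09 per hour, adjusted p = 0.0163, lost without the 5.5 hpf library. *ccna2* (0.06), *ccne1* (0.12) and *ccnd1* (-0.02) had no call, and *ccna2* had 1657, 1767 and 1829 TPM in the later window, against 1680, 1620 and 1721 TPM in the earlier one.

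In the maternal mRNA decay list of 39, 4 rose (10.3%) and 3 fell (7.69%), close to the 9.06% and 10.4% of all tested genes. The falls of *btg4* and *btg3* (-0.87) were kept in every fit and none of the rises was. Of the histone and chaperone list of 23, 3 rose (13%, against 9.06% of all tested genes) and 5 fell (21.7%, against 10.4%). The falls of *h1foo*, *npm2*, *asf1b* (-0.82) and *nasp* (-0.49), which encode an oocyte linker histone and histone chaperones, were kept, and so was the rise of a row of *h3f3b* (0.74), a gene of the replacement histone H3.3. Among 27 nucleoporin genes 2 rose (7.41%, against 9.06% of all tested genes) and 1 fell (3.7%, against 10.4%), and none was kept. These counts are too small to set the list apart from all tested genes. Cluster U1 of the paper holds maternal transcripts that were raised in *nup107* MO embryos. A list of 9 genes was built around its factors and also holds *nup107* itself (-0.4), the depleted gene. None of the 9 was called.

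Genes often used as constant references were not all constant. Of 25, 5 rose, a share above the 9.06% of all tested genes, and 2 fell, a share below the 10.4% of all tested genes. Of the rises, 4 were kept, and the median difference was 0.06. *eef1a1o*, an elongation factor gene, had 1451, 2074 and 3210 TPM in the later window, against 719.9, 828 and 1119 TPM in the earlier one, with a slope of 0.86 ± 0.06 per hour, adjusted p = 0.00028. *actb*, the row of a cytoplasmic actin, had 199.8, 267 and 339 TPM in the later window, against 69.4, 109 and 181 TPM in the earlier one, with a slope of 0.88 ± 0.07 per hour, adjusted p = 0.000636. *gapdh* (0.18), *ywhaz* (0.05) and *sub1* (0.01) had no call. Of 76 ribosomal protein genes, 23 rose (30.3%, against 9.06% of all tested genes) and none fell (against 10.4%), with 6 rises kept and a median difference of 0.16. *rps3a* had 66, 89.8 and 135 TPM in the later window, against 45.7, 52 and 61.1 TPM in the earlier one, with a slope of 0.58 ± 0.07 per hour, adjusted p = 0.00244, and most members moved less than that.

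Differentiated cells were hardly represented. Of 38 tissue marker genes in the table, 4 passed the filter, and 6 were listed at 0 in all 6 libraries. Their summed level was 16.2 to 20.7 TPM in the later window and 7.34 to 11.2 TPM in the earlier one. *foxj1*, a regulator of motile cilia, is also used in the paper as a marker of dorsal mesoderm at the onset of gastrulation. It had 0.84, 2.02 and 3.22 TPM in the later window, against 0, 0 and 0.04 TPM in the earlier one. Its rise (0.91 ± 0.15 per hour, adjusted p = 0.00654) was not called without the 7.5 hpf library.

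The 6 MO libraries of the same times gave a second series. It came from siblings of the UIC embryos, so it does not stand for other clutches. In them 1663 genes (12.8%) rose and 2131 (16.4%) fell. Of the genes that rose in UIC embryos, 1080 (91.5%) also rose in MO embryos, and of those that fell 1188 (87.9%) fell. These were 64.9% and 55.7% of the MO calls. No gene was called in opposite directions, and 1178 of the 1180 rises and 1341 of the 1352 falls had the same sign. The window difference itself was compared between MO and UIC embryos with time-matched pairs in limma: 0 of 13029 genes (0.0%) were called, the lowest adjusted p was 0.685, and 877 genes (6.73%) had an unadjusted p under 0.05. The difference between the slopes was also called in 0 genes, with 639 at an unadjusted p under 0.05.

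Gene by gene, most slopes of the named genes lay close together. *foxa4* rose by 3.41 per hour in MO embryos and 3.35 in UIC embryos, *gsc* by 2.79 per hour in MO embryos and 2.78 in UIC embryos, and *bmp4* by 1.64 per hour in MO embryos and 1.68 in UIC embryos. *t* rose by 3.01 per hour in MO embryos and 2.75 in UIC embryos. *btg4* fell by 1.61 per hour in MO embryos and by 1.38 in UIC embryos, and *cpeb1* by 1.12 per hour in MO embryos and by 1.07 in UIC embryos. All the falling genes named for the largest window differences fell faster in MO embryos, such as *fbxo43* (-1.545 per hour, against -1.272 in UIC embryos). Some other named falling genes fell more slowly there, such as *dnd1* (-0.06 per hour, against -0.19). None of these differences between slopes was called. Of the 62 genes that were higher by the window test, 56 also rose in MO embryos, and of the 3 lower genes 1 fell. Those not called in MO embryos included *esco1* (0.11 per hour) and *pnn* (0.15 per hour). At 5, 5.5 and 6 hpf *esco1* had 184, 244 and 254 TPM in MO embryos, against 133, 137 and 134 TPM in UIC embryos. *pnn* had 191, 257 and 255 TPM in MO embryos at these times, against 153, 161 and 152 TPM in UIC embryos. LOC101731914 had a slope of 0.8 in MO embryos, against -0.99 in UIC embryos, the one called gene named here whose sign was opposite.

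**Figure D5:**
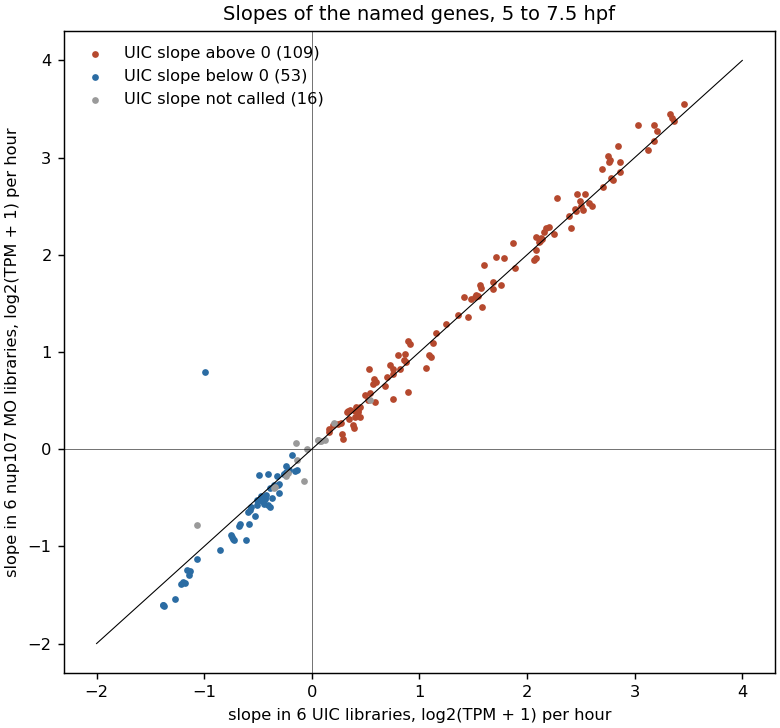
Slopes of the 178 named genes over 5 to 7.5 hpf, in log2(TPM + 1) per hour, in the 6 *nup107* MO libraries (vertical axis) against the 6 UIC libraries (horizontal axis), 1 point per gene. Red and blue mark genes that rose (109) and fell (53) in UIC embryos, grey those with no call (16), and the line marks equal slopes. Most points lie close to the line.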

How the data were processed

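PolyA+ RNA was sequenced from whole *X. tropicalis* embryos, 1 library per time point. Reads were aligned by the authors with STAR to the *X. tropicalis* genome together with the ERCC sequences, and RSEM gave TPM per gene. The deposited TPM table holds 34284 rows, 92 of them ERCC spike-ins. TPM keep no read counts, so the depth per library is unknown and no counting error is given. The deposited table named for ribosomal RNA-depleted libraries is identical to it, so the values were used once, as polyA+ by label, and the ribosomal RNA-depleted libraries were not analysed here.

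Windows were UIC 6.5, 7 and 7.5 hpf against UIC 5, 5.5 and 6 hpf. Genes whose TPM averaged 1 or more over the 6 libraries were tested on log2(TPM + 1), which understates changes of low genes, with limma 3.58.1 in R 4.3.3 (moderated test with a variance trend, two-sided, Benjamini-Hochberg over all tested genes, threshold 0.05). The slope per hour was fitted on the same values. MO and UIC were compared on time-matched differences. The steps were tested on simulated data. Tables were made with Python 3.11.15, numpy 2.4.6 and pandas 2.3.3, and figures with matplotlib 3.10.9.

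The window test was the chosen test and the slope an alternative to it. Settings tried were pseudocounts of 0.1 and 5 TPM, other filters, scaling by ERCC or by median ratios, no variance trend, other windows, and leaving out each time point. "Every fit" means these slope fits on UIC libraries: both scalings, both pseudocounts, no filter or a mean of at least 5 TPM (where the gene passes it), and each of the 6 time points left out.

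Named genes were the 10 largest differences in each direction among called genes with a symbol and at least 5 TPM in the higher window. Defining list members that passed the filter were named too, and up to 4 called members per list and direction. For *myod1* and *dlx3*, defining members below the filter, only the TPM are given. The rule was applied to slope calls too, after the counts of the window test had been seen. Members and lists were chosen with earlier results of these data known. Other list members are named as examples, most with their difference only, and were picked after the values had been seen. Single results for some list members are not reported here.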

Additional observations from a re-analysis of the deposited data

How the results depend on the processing

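The count of the window test depended on nearly every setting. The 62 higher genes became 12 with a pseudocount of 0.1 TPM, 8 with no filter, 0 with a mean of at least 5 TPM (limma, 2194 genes at an unadjusted p under 0.05), 416 with ERCC scaling, 37 with median ratios, 37 with no variance trend, 700 with the border time points left out, 897 with windows of 4 time points, 1495 with 12 libraries and condition as a term, and 0 to 564 with 1 time point left out. The slope gave 1180 higher and 1352 lower. The 3 lower genes became 1, 0 and 0 with the first 3 of these settings, 8 with ERCC scaling, 380 without the border time points, 651 with 4 time points, 1815 with 12 libraries and 0 to 564 with 1 time point left out. At least 2-fold higher genes, 56 as tested, were 12 and 32 with pseudocounts of 0.1 and 5 TPM, 6 with no filter, 0 with a mean of at least 5 TPM, 396 and 37 with the 2 scalings, 36 with no trend, 598 without the border time points, 645 with 4 time points, 697 with 12 libraries and 0 to 467 with 1 time point left out. At least 2-fold lower genes, 3 as tested, were 1, 0 and 0 with a pseudocount of 0.1 TPM, no filter and a mean of at least 5 TPM, 8 with ERCC scaling, 207 without the border time points, 192 with 4 time points, 134 with 12 libraries and 0 to 211 with 1 left out.

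The 1180 rises lay between 723 and 1248 with 1 time point left out, and the 1352 falls between 519 and 1655. Without the 5.5 hpf library 726 rose and 599 fell, and without the 7 hpf library 806 fell. Falls numbered 528 with ERCC scaling and 2131 in MO libraries. The median slope of all tested genes was -0.062 per hour with ERCC scaling and -0.026 as tested. Of the 162 named genes with a slope call, 104 kept it in every fit on UIC libraries, 124 with ERCC scaling and 113 without the 7.5 hpf library. The slope of *ccnd1* (-0.04) was 0.0027 in MO libraries and 0.0403 without the 7.5 hpf library, that of *fn1* (-0.08) was 0.0086 without the 5.5 hpf and 0.1119 without the 7.5 hpf library, that of *zar1* (-0.15) was 0.0684 in MO libraries, and that of LOC101731914 (-0.99) was 0.7951 in MO libraries. The comparison of MO with UIC called 0 genes in limma under all 4 settings, with 214 to 877 at an unadjusted p under 0.05. The causes of these shifts were not tested beyond the settings themselves. No paired analysis was possible because the labels give no replicate numbers that the windows share, which concerns the window and slope tests. MO and UIC were compared on time-matched pairs, and also without pairing (0 genes called in limma, 214 at an unadjusted p under 0.05).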

Other observations

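A set of genes followed the libraries in a zigzag that a straight slope misses. In 2337 tested genes (17.9%) the 5.5 and 6.5 hpf libraries were both above the other 4, and in 394 genes (3.02%) both were below them. Slope calls were made for 4 of the first set and 5 of the second. The 5.5 and 6.5 hpf libraries also had the highest scale factors by median ratios of the 6 (1.038 and 1.067). Their ERCC factors were the lowest (0.945 and 0.892). Whether the zigzag comes from the scale of these libraries was not tested. The fibronectin gene *fn1* is an example, with 49, 21.7 and 18.6 TPM in the later window, against 21.4, 33.6 and 17.2 TPM in the earlier one. Another is *foxh1*, which encodes the nuclear partner of the Nodal transducers. It had 189, 106 and 66.3 TPM in the later window, against 119.9, 143 and 97 TPM in the earlier one. In the 6 MO libraries of the same times both genes were highest at 5 hpf, *fn1* at 36.7 and *foxh1* at 153 TPM.

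Of 1085 tested genes under 1 TPM at 2 to 3 hpf, 276 (25.4%) peaked between 6.5 and 7.5 hpf and 107 (9.86%) between 5 and 6 hpf. Of all tested genes, 18.1% and 22.5% peaked at these times. The largest group of the 1085, 461 genes (42.5%), peaked between 10 and 12 hpf. The filter on the mean of both windows favours genes that are high in them. Of the named genes, *nog*, *bix1.1*, *lpar6* and *spry2* had their highest value of the 2 to 12 hpf course at 7.5 hpf, with 83, 158, 286 and 211 TPM. Among these, *spry2* already had 58.7 TPM at 2 to 3 hpf.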
